A study of Canis lupus familiaris with 8 samples.

Results

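CD207 and BATF3 are the genes on a custom canine NanoString panel that mark dendritic cell types involved in taking up and presenting antigen in skin. They were chosen by probe name, which gave 2 of the 160 panel genes. RNA from archival fixed skin biopsies was measured in 8 dogs. The dogs were 2 with Vogt-Koyanagi-Harada syndrome (VKH), 1 with vitiligo and 5 healthy, and both diseases are autoimmune disorders in which pigment cells are lost. By the labels the VKH dogs were males of 2.5 and 2 years, the vitiligo dog was a male of 1 year, and the healthy dogs were 6, 12, 8, 11 and 11 years old, with males at numbers 2 and 4. The study's case descriptions give older ages for VKH dog 2 and for the vitiligo dog, and the label ages are used here. They were veterinary patients of several breeds and crosses, and the disease of the cases arose naturally. The cases' skin came from shave or punch biopsies of lesions, whereas the healthy skin came from the leg margins of amputations, so body site, age and disease cannot be told apart.

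CD207 encodes langerin, a lectin of the Langerhans cell, the dendritic cell that lives in the epidermis. Langerin sits in the membrane of Birbeck granules and binds sugars on microbes. BATF3 encodes a basic leucine zipper transcription factor. In mice it is required for the development of conventional type 1 dendritic cells, which take up dead cells and present their antigens to CD8 T cells, a process called cross-presentation. BATF3 is not restricted to these cells, since activated T cells of mice and humans also use it. In human vitiligo, CD8 T cells directed against melanocyte antigens kill the pigment cells.

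Lanes of healthy dogs held 209889 to 675018 counts over the panel genes, that of the vitiligo dog 421915, and those of VKH dogs 1 and 2 held 742667 and 616576. Each lane held 8 negative control probes that match no dog transcript, and background was set at their mean plus 2 SD, which gave thresholds of 16.6 to 27.8 counts. Between 103 and 148 genes lay above it in a healthy dog, against 137 to 141 in a case. Counts are given raw or scaled, where scaled means divided by a dog's relative level of the housekeeping genes B2M, RPL13A, CCZ1 and HPRT. Poisson intervals cover counting error only.

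CD207 was at or below background in all 8 dogs. The raw CD207 counts were 3 and 3 in VKH skin, 6 in vitiligo skin, and 6, 9, 21, 12 and 3 in healthy dogs 1 to 5. The healthy and diseased dogs overlapped, since healthy dog 5 had the same count as both VKH dogs. The highest count was that of healthy dog 3, with an exact 95% Poisson interval of 13.0 to 32.1 around 21, and the background of its lane was 22.8. In that lane 1 of the 8 negative controls was at or above CD207, and in healthy dog 4 it was 3 of 8. In the other 6 lanes 7 or 8 of the 8 negative controls were at or above it.

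**Figure D1:**
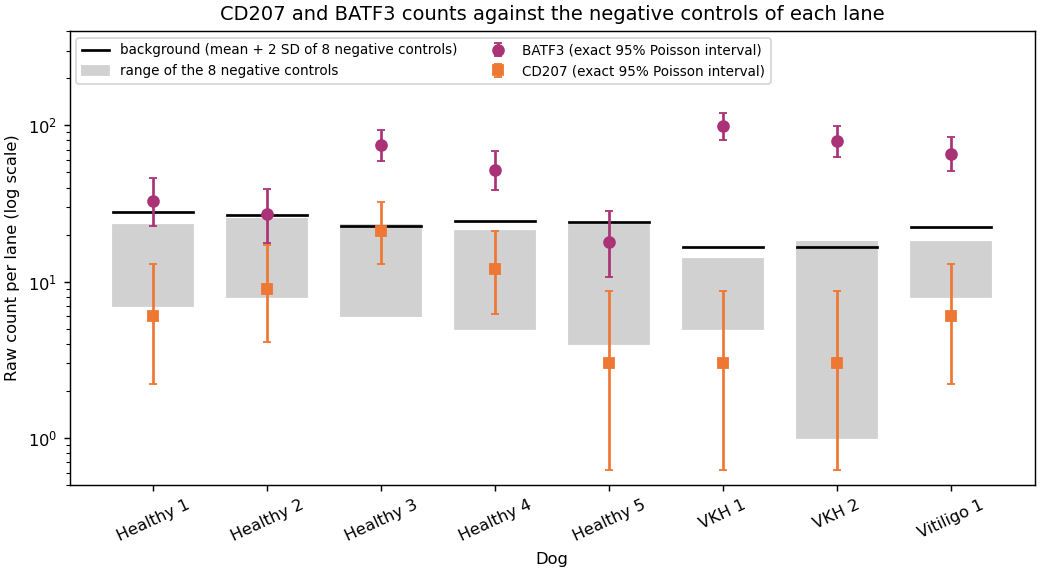
Raw counts of BATF3 (circles) and CD207 (squares) in each dog on a log axis, with exact 95% Poisson intervals, the range of the 8 negative controls (grey) and the background threshold of the lane (black line). CD207 lies at or below the line in all 8 dogs, and BATF3 lies above it in 7, the exception being healthy dog 5.

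Summed over the 8 dogs, CD207 gave 63 counts. The 8 negative controls gave 57 to 127, and 1 of them was lower than CD207. By mean scaled count CD207 ranked 157 of 160, and it was 1 of 4 panel genes that never rose above background, beside IL17A and IL9, which encode T cell cytokines, and POMC, the precursor of melanocyte-stimulating hormone. Against the most dilute of the spiked positive controls, CD207 reached 3.26% to 28.0% of its count. Langerin RNA was therefore not detectable at this depth in any dog, which is not evidence that it was absent, and no fold change is given for it.

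The tests on CD207 are those of counts within background. After scaling, CD207 was 2.03 and 3.77 in VKH skin, 6.90 in vitiligo skin, and 8.49, 11.0, 11.3, 13.7 and 2.92 in the healthy dogs (9.47 ± 4.09, SD, n = 5). Both VKH values lay under 4 of the 5 healthy dogs, and healthy dog 5 lay between them. In edgeR's quasi-likelihood test the Benjamini-Hochberg adjusted p was 0.0661 for VKH against healthy, where 31.4% of the 156 genes tested passed the threshold of 0.05 as higher and 12.2% as lower. It was 0.735 for vitiligo against healthy, where 21.8% passed as higher and 2.56% as lower. For the 3 cases together it was 0.104, where 36.5% passed as higher and 14.1% as lower. Between VKH and vitiligo it was 0.949, where 0.641% of genes passed. The exact permutation test over dogs (two-sided) gave p = 0.1905 for VKH, 0.6667 for vitiligo and 0.1429 for the 3 cases, and the smallest values that these designs allow are 0.09524, 0.3333 and 0.03571.

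The negative controls were also lower in VKH than in healthy skin. Their mean raw count was 9.75 and 6.5 in the VKH lanes and 10.9 to 14.9 in the healthy lanes, which did not overlap. Divided by the same scaling factors it was 6.58 and 8.16 in VKH skin, 15.2 in vitiligo skin, and 20.5, 18.1, 5.85, 15.1 and 11.4 in the healthy dogs, where healthy dog 3 lay below both VKH dogs. When the 8 negative controls were entered into the fit, 7 of 8 were lower in VKH than in healthy skin, with a median log2 fold change of -1.09 and 1 past the threshold, and CD207 had an adjusted p of 0.0727. The part of this shift in the CD207 difference was not tested. The adjusted p of CD207 in VKH fell to 0.0102 with library total scaling, 0.0299 with TMM scaling and 0.0293 with median-of-ratios scaling, and to 0.0206 without healthy dog 5. These calls too rest on counts that did not exceed the background of their lanes.

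Keratins of the epidermis, where Langerhans cells live, were at high counts in every biopsy, although hair follicles also make the basal ones. Summed scaled counts of KRT5 and KRT14, the keratins of basal keratinocytes, were 54100 and 71300 in the VKH dogs and 58300 in the vitiligo dog, against 31800 to 94300 in healthy skin. Neither keratin passed the test in any comparison with healthy skin. The keratins and envelope proteins of the upper epidermis (KRT1, KRT10, IVL and FLG) summed to 213000 and 421000 in VKH and 169000 in vitiligo, against 34100 to 113000 in healthy skin. Langerhans cells were represented by CD207 alone among the 5 genes listed for them, so their share in the biopsies cannot be read from these data. Among 8 genes listed for the upkeep of Langerhans cells, 3 were measured and 0 of 3 passed in any of the comparisons with healthy skin. With 31.4% of all genes passing as higher and 12.2% as lower in VKH, and 21.8% and 2.56% in vitiligo, a count of 0 among 3 is not a result about these genes. TGFB1, the cytokine that Langerhans cells depend on, had a log2 fold change of -0.29 (SE 0.33, adjusted p = 0.487) in VKH. AHR, the aryl hydrocarbon receptor, had 0.08 (SE 0.36, adjusted p = 0.847). CCL20, the chemokine that draws cells with the receptor CCR6 into the epidermis, had 0.04 (SE 0.65, adjusted p = 0.956).

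BATF3 was detected above background in 7 of 8 dogs and was higher in the 3 cases than in healthy skin. The raw BATF3 counts were 99 and 79 in VKH skin, 66 in vitiligo skin, and 33, 27, 75, 52 and 18 in healthy dogs 1 to 5. Both VKH dogs exceeded every healthy dog in raw counts, while the vitiligo dog lay below healthy dog 3. The share of all genes with both VKH dogs highest was not computed, and raw counts take no account of lane depth. Healthy dog 5, at 18 counts against a background of 24.2, was the dog below background, and healthy dog 2 exceeded its background of 26.8 by less than 1 count. BATF3 ranked 108 of 160 by mean scaled count, and it reached 19.6% to 160% of the most dilute positive control. The counting error was not small at this level. The exact 95% Poisson interval was 80.5 to 121 in VKH dog 1, 62.6 to 98.5 in VKH dog 2 and 51.0 to 84.0 in the vitiligo dog. In healthy dog 3 it was 59.0 to 94.0, which overlaps all of these.

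After housekeeping scaling, BATF3 was 66.8 and 99.2 in the VKH dogs (83.0 ± 22.9, SD, n = 2) and 75.9 in the vitiligo dog. It was 46.7, 32.9, 40.4, 59.2 and 17.5 in the healthy dogs (39.3 ± 15.6, SD, n = 5). All 3 cases lay above all 5 healthy dogs, as they did for 34.6% of the 156 genes. The nearest values on the 2 sides were those of VKH dog 1 and healthy dog 4. In the edgeR fit BATF3 was higher in the 3 cases by a log2 fold change of 1.03 (SE 0.38, adjusted p = 0.0423), a fold of 2.05 with a 95% interval of 1.14 to 3.67. It was 1 of the 36.5% of genes that passed as higher in this comparison. The exact permutation test over dogs (two-sided) gave p = 0.03571, the smallest value that 3 against 5 dogs allow. In bulk skin, more cells of a type and more RNA per cell cannot be told apart.

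Neither disease passed the threshold for BATF3 on its own. In VKH the log2 fold change was 1.07 (SE 0.44, adjusted p = 0.0675), with a 95% interval of 0.10 to 2.05 that is not adjusted for the number of genes. In vitiligo it was 0.95 (SE 0.56, adjusted p = 0.263), with an interval of -0.30 to 2.20, and this comparison rests on 1 dog that is assumed to vary like the others. The exact permutation tests gave p = 0.09524 for VKH and 0.3333 for vitiligo, and both are the smallest values their numbers of dogs allow. Between VKH and vitiligo the log2 difference was 0.12 (SE 0.66, adjusted p = 0.984). Its 95% interval of -1.36 to 1.60 leaves room for a difference of over 2-fold in either direction. The mean of the negative controls of each lane was also subtracted, and the remainder scaled. BATF3 was then 60.3 and 91.0 in VKH and 60.6 in vitiligo, against 26.2, 14.8, 34.5, 44.1 and 6.08 in healthy skin. The groups did not overlap, but the share of all genes without overlap was not computed for this measure, so no support is read from it. A limma fit to such values did not pass in the 3 cases (log2 fold change 1.69, adjusted p = 0.0543).

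The size of the BATF3 difference and its side of the threshold depended on how the counts were scaled. B2M, which encodes the light chain of the class I antigen-presenting complex, is 1 of the 4 housekeeping genes. Its ratio to the other 3 was 72.5 and 87.6 in the VKH dogs and 67.0 in the vitiligo dog, against 9.93 to 22.1 in the healthy dogs. With B2M left out of the scaling, BATF3 was 85.1 to 132 in the cases and 14.5 to 51.3 in healthy skin, and the log2 fold change rose to 1.62 (SE 0.39, adjusted p = 0.00412). In VKH alone it then passed as well, at 1.68 (adjusted p = 0.00883). The share of all genes with the 3 cases above all healthy dogs was not computed for this scaling. With the library total as the scale, the VKH dogs had 54.4 to 56.6 and the vitiligo dog 66.4, while healthy skin spanned 24.8 to 66.7. None of the 3 cases was then above all healthy dogs, and the log2 fold change was 0.34 (SE 0.38, adjusted p = 0.439) for the 3 cases and 0.25 (adjusted p = 0.637) for VKH alone. These scales shift all genes of a dog alike. The median log2 fold change over all genes in the 3 cases was 0.07 with housekeeping scaling, 0.65 without B2M and -0.61 with the library total. Relative to that median BATF3 was higher by 0.96, 0.97 and 0.94, and over all 7 scalings tried by 0.94 to 1.01. The same difference was 1.08 to 1.17 in VKH and 0.66 to 0.70 in vitiligo. A change of scale moves BATF3 and the median nearly alike, so this steadiness over scalings follows from the measure. The difference has no test of its own.

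**Figure D2:**
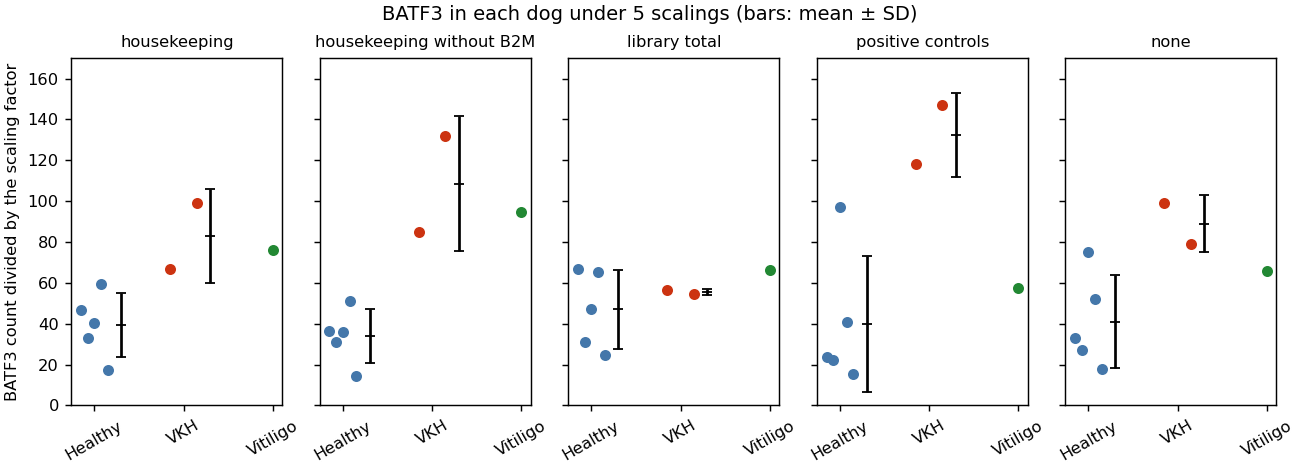
BATF3 in each dog under 5 scalings, with the count divided by the scaling factor on the vertical axis, points for dogs, and bars for the mean ± SD of the healthy and VKH dogs. The cases and healthy dogs are apart with housekeeping genes, with or without B2M, and overlap with the library total, the positive controls and unscaled counts. With all housekeeping genes 34.6% of the 156 genes had all cases above all healthy dogs, and this share was not computed for the other scalings.

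With scaling to the spiked positive controls, the VKH dogs had 118 to 147 and the vitiligo dog 57.6, and healthy dog 3 reached 97.3. The log2 fold change for the 3 cases was then 1.43 with a wider error (SE 0.74, adjusted p = 0.148). The call for the 3 cases was also lost in 6 of 8 fits that left out 1 dog, although the log2 fold change stayed between 0.85 and 1.23. The adjusted p was 0.0537 without VKH dog 1, 0.128 without VKH dog 2 and 0.0663 without the vitiligo dog. It was 0.0797, 0.0722 and 0.0525 without healthy dogs 2, 3 and 5. In the male dogs alone, 3 cases against 2 healthy dogs, the log2 fold change was 0.80 (SE 0.44, adjusted p = 0.207). The direction was higher in the cases under every setting tried, and the side of the threshold was not.

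**Figure D3:**
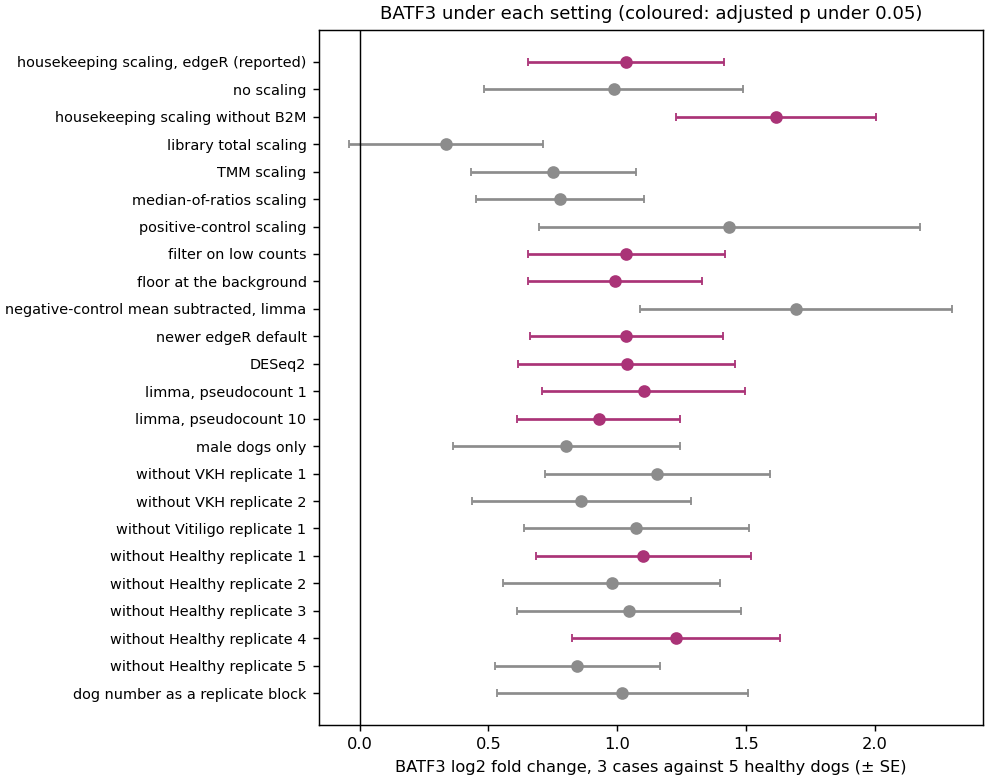
Log2 fold change of BATF3 in the 3 cases against the 5 healthy dogs, or those left in the fit, with its SE, under each setting named on the vertical axis. All points lie above 0, between 0.34 and 1.69, and coloured points have an adjusted p under 0.05.

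Cross-presenting dendritic cells were represented by BATF3 alone among the 11 genes listed for them, so their number cannot be read from it. None of the 6 genes listed for antigen processing and presentation was measured here. Other dendritic cell and maturation genes were measured for 5 of 18. In VKH 2 of 5 passed as higher and 1 as lower, beside 31.4% and 12.2% of all genes, with a median log2 fold change of 0.05 against -0.01 over all genes. In the 3 cases 3 of 5 passed as higher and 0 as lower, beside 36.5% and 14.1%, with a median of 1.34 against 0.07. The third of these is CCL17, which was high in the vitiligo dog alone. All values for vitiligo rest on 1 dog, whose spread is taken from the other dogs, and the exact permutation test for 1 against 5 dogs cannot go below p = 0.3333. CD86, the costimulatory ligand that activated dendritic cells show to T cells, rose in VKH by a log2 fold change of 1.31 (SE 0.37, adjusted p = 0.0175), and was 1.38 (SE 0.46, adjusted p = 0.0518) in vitiligo. CCL22, a chemokine that draws cells with the receptor CCR4, passed as higher in both, by 2.25 (SE 0.50, adjusted p = 0.00538) and 2.79 (SE 0.59, adjusted p = 0.00689). CCL17, the other CCR4 ligand, was 718 scaled counts in the vitiligo dog, 23.0 and 27.6 in the VKH dogs and 32.6 to 38.7 in healthy skin. It was higher in the vitiligo dog by 4.37 (SE 0.31, adjusted p = 1.14e-05) and was -0.46 (SE 0.32, adjusted p = 0.245) in VKH. CCL13, a chemokine for monocytes and eosinophils, was lower in VKH by a log2 fold change of -1.47 (SE 0.47, adjusted p = 0.0286). For BATF3 the VKH dogs, at 66.8 and 99.2 scaled counts, lay on either side of the vitiligo dog at 75.9.

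**Figure D4:**
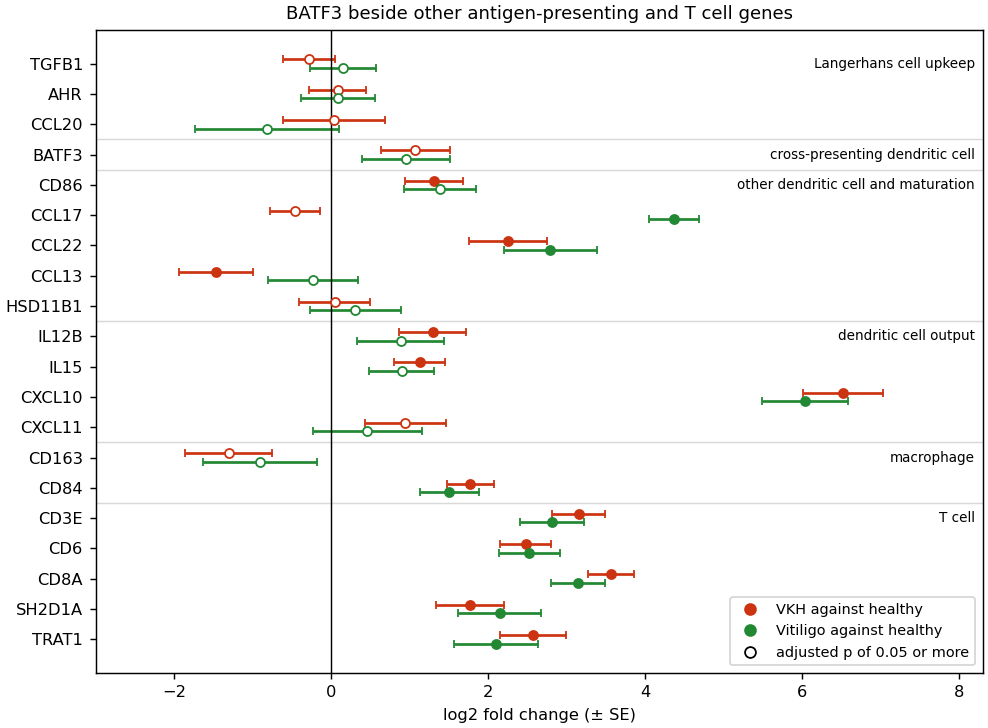
Log2 fold change (± SE) of BATF3 and of the measured genes listed for Langerhans cell upkeep, other dendritic cells, dendritic cell output, macrophages and T cells, in VKH (red) and vitiligo (green) against healthy skin. Filled points have an adjusted p under 0.05, and BATF3, at 1.07 and 0.95, is open in both.

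Genes listed for what dendritic cells release to T cells were measured for 4 of 7, and bulk skin does not show which cells made their RNA. In VKH 3 of 4 passed as higher, in vitiligo 1 of 4, and in the 3 cases together 3 of 4, beside 31.4%, 21.8% and 36.5% of all genes. The vitiligo count is near that of the panel. IL12B encodes a subunit shared by interleukin 12 and interleukin 23, and interleukin 12 is a known product of type 1 dendritic cells in mice. Its scaled counts were 54.0 and 112 in VKH and 62.1 in vitiligo, against 21.9 to 53.5 in healthy skin, with a log2 fold change of 1.30 (SE 0.42, adjusted p = 0.0304) in VKH. IL15, a survival cytokine for memory CD8 T cells, rose in VKH by 1.13 (SE 0.32, adjusted p = 0.0179). CXCL10, a ligand of the chemokine receptor CXCR3 of T cells, was higher by 6.52 (SE 0.51, adjusted p = 2.25e-05) in VKH and 6.04 (SE 0.55, adjusted p = 4.98e-05) in vitiligo. CXCL11, another ligand of that receptor, was 0.95 (SE 0.51, adjusted p = 0.146) in VKH. The BATF3 log2 fold change of 1.07 in VKH was thus close in size to those of IL12B and IL15 and far under that of CXCL10.

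Genes of T cells and B cells were also higher in the cases, and those of other cells did not all move this way. All 5 measured T cell genes passed as higher in VKH and in the vitiligo dog, beside 31.4% and 21.8% of all genes. CD3E, a subunit of the T cell receptor complex, rose by a log2 fold change of 3.15 (SE 0.34, adjusted p = 8.43e-05) in VKH, and CD8A, the CD8 coreceptor, by 3.57 (SE 0.30, adjusted p = 2.25e-05). The 5 genes together summed to 1550 and 2000 scaled counts in the VKH dogs and 1470 in the vitiligo dog, against 161 to 261 in healthy skin. The 4 B cell genes, of which 4 passed as higher in VKH and 2 in vitiligo, summed to 233 and 413 in VKH and 493 in vitiligo, against 92.4 to 132 in healthy skin. Of the macrophage genes, CD84 rose in VKH by 1.78 (SE 0.30, adjusted p = 0.00124), while the scavenger receptor CD163 was -1.30 (SE 0.55, adjusted p = 0.077), and their sum was 841 to 959 in VKH and 1000.0 in vitiligo, against 602 to 2510 in healthy skin. In VKH 1 of 3 mast cell genes and the 1 endothelial gene measured passed as lower, beside 12.2% of all genes. Of the melanocyte genes 0 of 3 passed in VKH, beside 31.4% of all genes as higher and 12.2% as lower. A count of 0 among 3 is not a result about these genes. The part of T cells and B cells in the BATF3 difference was not tested.

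BATF3 was set against the T cell genes within each dog. The mean log2 raw count of CD3E, CD6, CD8A, SH2D1A and TRAT1 was subtracted from that of BATF3 in each dog. First 1 was added to each raw count, and no scaling was used. This difference was -1.43 and -1.25 in the VKH dogs and -1.31 in the vitiligo dog, and 0.43, -0.14, 0.44, 0.76 and -0.47 in healthy dogs 1 to 5. All 3 cases lay below all 5 healthy dogs. The 5 T cell genes had already passed as higher in the same dogs, with a median log2 fold change of 2.49 in the 3 cases. Against them, a gene that rose less, like BATF3 at 1.03, lies lower in the cases by construction. The share of other genes that would do the same was not computed, so this is not a trait of BATF3. The mean was -1.33 ± 0.09 (SD, n = 3) in the cases and 0.21 ± 0.49 (SD, n = 5) in healthy skin, and the cases were lower by a log2 difference of -1.54 in the exact permutation test over dogs (two-sided, p = 0.03571, the smallest possible). After Benjamini-Hochberg adjustment over the 3 ratios computed, the permutation p was 0.0536, which does not pass. Low counts limit the T cell side in healthy skin, where SH2D1A was 14.6 to 49.5 and TRAT1 4.25 to 9.75 scaled counts.

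**Figure D5:**
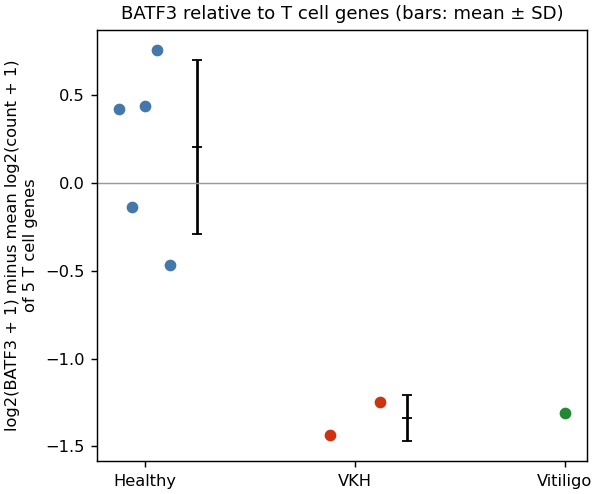
Log2(raw BATF3 count + 1) minus the mean of the same measure over 5 T cell genes, a point per dog. Bars give the mean ± SD of the healthy and VKH dogs. The 3 cases lie between -1.43 and -1.25, below the 5 healthy dogs at -0.47 to 0.76.

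The genes whose levels followed BATF3 most closely were sought by the mean absolute difference of log2 scaled counts over the 8 dogs, after each gene was centred on its own mean. They are given as a description of these 8 dogs, which share their lanes and scaling factors. The closest were CD40LG (0.231), the T cell ligand that activates dendritic cells and B cells, BLK (0.245), a kinase of B cells, and CXCL11 (0.246). The median over the other genes was 0.795, and the nearest negative control stood at 0.539. CD40LG was above background in 4 of 8 dogs, with scaled counts of 31.1 and 35.1 in VKH, 35.6 in vitiligo and 5.83 to 15.9 in healthy skin. BLK, above background in all 8 dogs, was 83.0 and 171 in VKH, 81.6 in vitiligo and 32.1 to 68.3 in healthy skin. CXCL11, above background in 5 of 8 dogs, overlapped between the groups, with 38.5 and 49.0 in VKH, 31.0 in vitiligo and 8.75 to 36.8 in healthy skin.

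For CD207 the same search ran on counts within background, so it describes those counts and not langerin RNA. The closest genes were CCL21 (0.209), a chemokine of lymphatic vessels, the mast cell protease CPA3 (0.291) and melatonin receptor 1 (0.313), and the nearest negative control stood at 0.471. No likeness of CD207 to these genes is read from it.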

How the data were processed

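RNA was isolated from fixed skin, hybridised to the probes and counted on a Sprint instrument with no amplification or alignment. The authors deposited 1 table of raw counts per probe, and their methods state that nSolver was used. The table holds 160 genes, of which 4 are housekeeping genes, with 6 positive and 8 negative controls. Probe names were mapped to symbols through 72 accessions and 76 symbols, 3 came from the paper and 9 were kept as given. Both members matched by symbol.

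The library size in edgeR 4.0.16 (R 4.3.3) was the geometric mean count of the 4 housekeeping genes, and scaled counts were divided by it relative to its geometric mean over dogs. The quasi-likelihood test (legacy fit) ran on all 8 dogs and 156 genes with no filter, and a second fit set the 3 cases against healthy dogs. Benjamini-Hochberg adjustment ran over those 156 genes, with a threshold of 0.05. The design has 2, 1 and 5 dogs per group, and p-values measure the spread between these dogs. Exact permutation tests used log2(scaled count + 1) in Python 3.11.15 with SciPy 1.17.1. The test of BATF3 against the T cell genes used log2(raw count + 1). The fits were run on simulated data in which the housekeeping scale was the true one, so this cannot judge the choice of scaling. Its outcome is not given here. Alternatives were other scalings, a filter of 20 counts in 2 dogs, a floor at background, subtraction of the negative-control mean, limma 3.58.1 and DESeq2 1.42.0. Further ones were a pseudocount of 10, male dogs, leaving out each dog and the dog number as a block.

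The members, gene lists and tests were chosen with earlier results of these data known. Genes named are the members, up to 4 per antigen-presenting list by absolute log2 fold change in VKH, the 3 genes most like each member, and the genes of scales and ratios. IL17A, IL9, POMC, KRT1, KRT10, IVL and FLG were named after their values were seen. Ratios of CD207 to the basal keratins and to BATF3 were computed but are not given, because CD207 did not exceed background. The fit with negative controls and the T cell ratio for each disease were added after seeing the data.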

Additional observations from a re-analysis of the deposited data

How the results depend on the processing

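For BATF3 the 3 cases were higher than healthy skin under all alternatives. The call held with housekeeping scaling without B2M, the filter on low counts, the floor at background, the newer edgeR fit, DESeq2 and limma with either pseudocount. It was lost with no scaling (log2 fold change 0.99), library total scaling (0.34), TMM scaling (0.75), median-of-ratios scaling (0.78), positive-control scaling (1.43), subtraction of the negative-control mean (1.69) and male dogs only (0.80), and the values without 1 dog ran from 0.85 to 1.23. In VKH BATF3 was 0.25 (adjusted p = 0.637) with library total scaling, the lowest of 0.25 to 1.79 over the alternatives other than leaving out 1 dog, and the call was gained without B2M (1.68) and, among values of 0.77 to 1.34 without 1 dog, without healthy dog 4 (1.27, adjusted p = 0.0484). In vitiligo it was 0.505 to 1.503, with no call under any alternative. Between VKH and vitiligo the direction turned with library total scaling (-0.26) and without VKH dog 2 (-0.18), in a range of -0.18 to 0.39 without 1 dog. The difference of BATF3 from the T cell genes was -1.64 in male dogs only (exact permutation p = 0.2, the smallest possible with 3 against 2 dogs). The cause of these changes was not tested, and the fits that leave dogs out also have fewer dogs.

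The adjusted p of CD207 in VKH, 0.0661, became 0.0102 with library total scaling, 0.0299 with TMM scaling and 0.0293 with median-of-ratios scaling, and ran from 0.0206 (without healthy dog 5) to 0.311 without 1 dog. For the 3 cases it became 0.0214, 0.0343 and 0.032 with the same scalings and ran from 0.037 (without healthy dog 5) to 0.338. Other alternatives raised it. Without B2M it was 0.227 in VKH and 0.390 in the 3 cases, and with positive-control scaling 0.577 and 0.439. It was highest in limma after subtraction of the negative-control mean, at 0.638 in VKH and 0.535 in the 3 cases. In vitiligo the direction turned without B2M (adjusted p = 0.979). The filter removed 10 genes, CD207 among them, and DESeq2 gave CD207 no adjusted p in the 3 cases.

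Genes past the threshold numbered 24 to 82 in VKH (68 as reported), 9 to 52 in vitiligo (38) and 37 to 88 in the 3 cases (79) over the alternatives, and 0 to 5 between VKH and vitiligo (1). In the 3 cases 57 genes passed as higher and 22 as lower, against 67 and 9 without B2M, 39 and 4 with positive-control scaling, 32 and 50 with library total scaling, 47 and 38 with TMM scaling, and 49 and 39 where median-of-ratios factors were used. Shared dog numbers name separate animals. The deviations of same-numbered VKH and healthy dogs correlated at -0.076 and -0.126, within the -0.231 to 0.231 of all pairs. With 2 VKH dogs the deviations mirror each other, so these values cannot decide whether numbers are paired. With the dog number as a replicate block, BATF3 in the 3 cases was 1.02 (adjusted p = 0.169) and 37 genes passed. CD207 did not exceed background in any of the 8 dogs, and BATF3 did not in healthy dog 5. The part of depth in this was not tested.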
